A study of Homo sapiens with 3 samples.

Results

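Classical erythroid target loci of GATA1 were examined in peak lists from K562 cells, a human erythroleukaemia line that makes embryonic and fetal globins. The loci were 6 stretches of hg19 that cover 640 kb in all. They were the alpha globin cluster with HBA1, HBA2 and HBZ (chr16:100000-250000), the beta globin cluster and its control region with HBB, HBG1 and HBG2 (chr11:5220000-5320000), GATA2 (chr3:128190000-128350000), TAL1 (chr1:47640000-47760000), KLF1 (chr19:12980000-13020000) and GATA1 itself (chrX:48600000-48670000). A peak belonged to a locus if its midpoint lay within it. By this rule 14 of 19529 peaks were members: 3 of 5164 in the GATA1 list and 11 of 14365 in the codanin-1 list.

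The series holds 3 chromatin immunoprecipitation and sequencing (ChIP-seq) libraries of K562 cells, each made from 30000000 cells crosslinked for 10 minutes with 1% formaldehyde. The first used Cod1, a homemade antibody against residues 123 to 142 of codanin-1, the protein mutated in congenital dyserythropoietic anaemia type I. The second used the N6 antibody against GATA1, and the third used rabbit IgG, for which no peak list was analysed here. A further codanin-1 antibody, Cod2, is named in the design and was not analysed here either. With 1 library per antibody, the values have no replicate error and no test was made between the antibodies. The peaks are calls above a threshold, and the lists give no read counts. An empty locus therefore means that no peak was called there at a depth that is unknown, not that the factor was absent.

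GATA1 is a zinc finger transcription factor that binds GATA motifs and directs red cell genes. In erythroid cells it is known to bind the distant enhancer of the alpha globin genes, which lies inside the neighbouring gene NPRL3, and the locus control region of the beta globin genes. It is also known to act on TAL1 and KLF1, which encode transcription factors that work beside it on the same enhancers, on its own gene, and on GATA2, whose product it displaces as red cells mature. These loci are therefore commonly used to judge a GATA1 experiment.

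The RefSeq promoters available for the members were searched for the letters that GATA1 reads, and 2 are printed because they hold such letters. Of these, 1 lies in a locus with GATA1 peaks and the other in a locus without. Promoters were matched for 4 of the 10 members (GATA2, TAL1, KLF1 and GATA1), with 6 start sites between them. Only the 250 bases before each start were searched, on both strands, for AGATAA or AGATAG or TGATAA or TGATAG, and the hexamers found did not overlap each other. Such a hexamer was present at 2 of the 6 start sites and in 7840 of all 35116 RefSeq promoters searched (22.3%). Capitals mark the hexamers in the sequences below, which run 5′ to 3′ and are on the minus strand of GRCh38.p14, another build than that of the peaks. TAL1 lies at chr1:47232336-47232585 there and KLF1 at chr19:12887202-12887451.
TAL1: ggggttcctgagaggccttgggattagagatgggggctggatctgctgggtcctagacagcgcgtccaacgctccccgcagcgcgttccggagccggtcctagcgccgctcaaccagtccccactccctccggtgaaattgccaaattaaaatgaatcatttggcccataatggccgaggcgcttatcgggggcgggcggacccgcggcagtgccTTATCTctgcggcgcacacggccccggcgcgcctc
KLF1: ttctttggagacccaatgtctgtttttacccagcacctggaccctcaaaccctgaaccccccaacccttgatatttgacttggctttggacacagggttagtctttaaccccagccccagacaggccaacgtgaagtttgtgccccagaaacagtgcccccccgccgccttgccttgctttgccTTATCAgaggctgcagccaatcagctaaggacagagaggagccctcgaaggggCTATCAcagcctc
The TAL1 promoter had 1 hexamer, read as TTATCT on the strand shown, that began 35 bases before the start. The KLF1 promoter had TTATCA at 66 bases and CTATCA at 13 bases before its start. The promoters of GATA2 (2 start sites), of GATA1 and at the second start site of TAL1 had none of these letters in this window. A match describes sequence and is not a binding site. No genome or gene table of hg19 was used here, so no peak could be placed on a promoter, exon, intron or enhancer, and the positions of the genes within the loci were not checked.

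The GATA1 list had a peak in 1 of the 6 loci, that of TAL1, and none at either globin cluster, GATA2, KLF1 or GATA1. The 5 loci without a GATA1 peak span 520 kb. The codanin-1 list had peaks in 4 of the 6 loci: 7 at the alpha globin cluster, 2 at TAL1, 1 at GATA2 and 1 at GATA1. The beta globin and KLF1 loci were empty in both lists. In the GATA1 list, windows of the same length tiled along chromosomes 1 to 22 and X held at least 1 peak in 10.0% of cases at the length of the alpha globin locus (150 kb), 7.35% at that of the beta globin locus (100 kb), 10.5% at that of GATA2 (160 kb), 8.43% at that of TAL1 (120 kb), 3.62% at that of KLF1 (40 kb) and 5.64% at that of GATA1 (70 kb). Most windows of these sizes were thus empty in this list. The matching shares in the codanin-1 list were 30.3%, 23.9%, 31.4%, 26.9%, 12.7% and 19.1%. Assembly gaps were not left out of the windows, which lowers these shares.

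**Figure D1:**
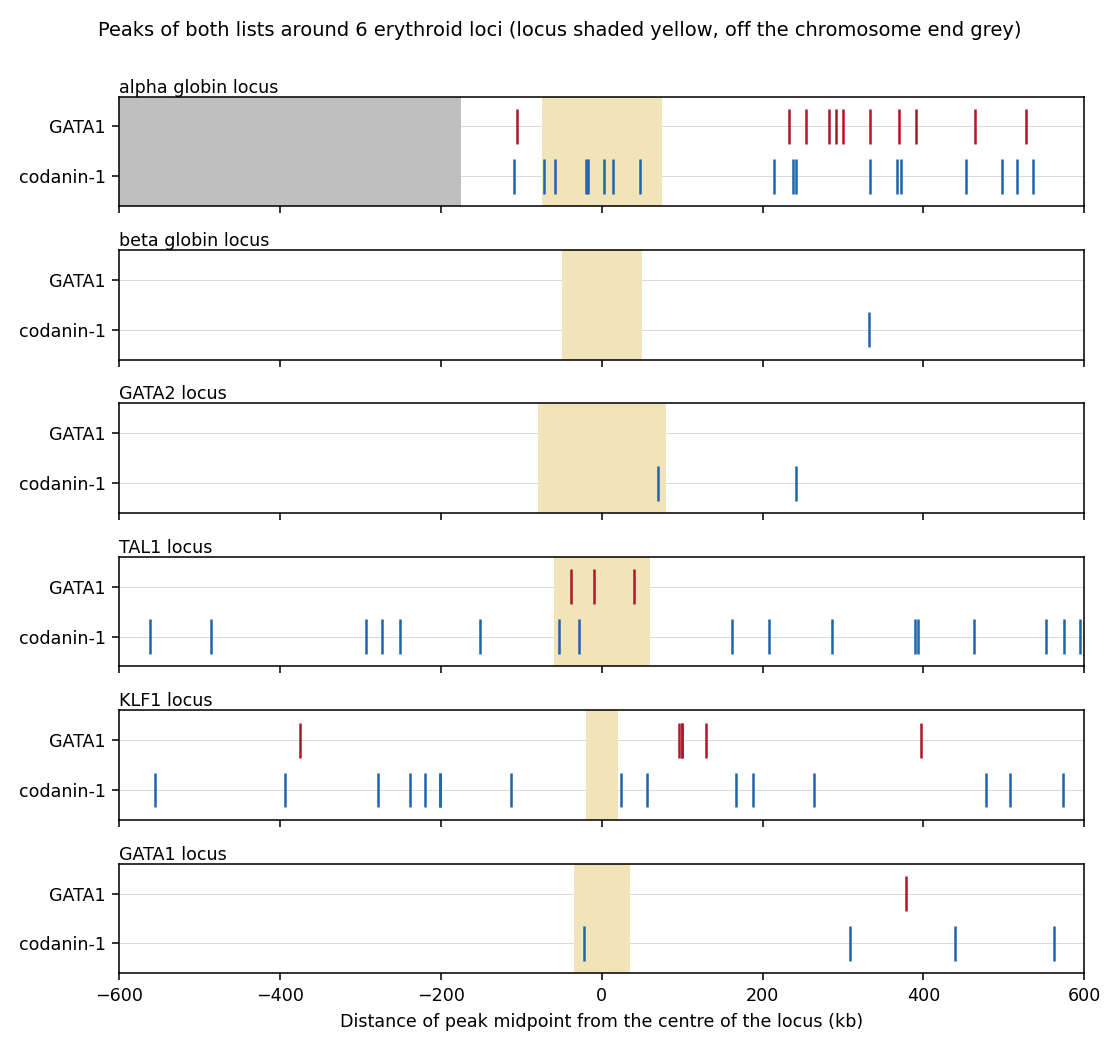
Peaks of the GATA1 list (red) and the codanin-1 list (blue) as ticks at the distance in kb of their midpoint from the centre of each locus, with the locus shaded. Red ticks fall inside the shading only at TAL1 (3 peaks), and 7 blue ticks fall inside the alpha globin locus.

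TAL1 encodes a basic helix-loop-helix factor needed to form blood cells and was the only locus with GATA1 peaks. The first was at chr1:47661861-47661920, 60 bp wide, with a fold enrichment of 4.18 and a −log10 q of 1.45. The second, at chr1:47689998-47690184, was 187 bp wide with a fold enrichment of 4.10 and a −log10 q of 1.42. The third, at chr1:47740164-47740223, was 60 bp wide with a fold enrichment of 4.14 and a −log10 q of 1.45. Fold enrichment here is the authors' ratio of library to background for the peak, and the q-value is the adjusted p-value of the peak caller. All 3 lay below the list's medians of fold enrichment (4.18) and −log10 q (1.61), the first only just in fold. They lay above its lower quartiles of 3.96 and 1.41. By fold enrichment they stood above 49.5%, 39.7% and 45.0% of the list, and by −log10 q above 29.2%, 25.4% and 29.7%. The first and the last had the list's minimum width of 60 bp, which 584 GATA1 peaks (11.3%) shared.

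The codanin-1 peaks at TAL1 lay between and before the GATA1 peaks without touching them. The first, at chr1:47646068-47646487, was 420 bp wide with a fold enrichment of 3.75 and a −log10 q of 1.5, below both medians of the codanin-1 list (3.97 and 1.6). The second, at chr1:47671160-47671283, was 124 bp wide with a fold enrichment of 4.77 and a −log10 q of 2.53, above 91.6% of the list in fold and 92.0% in −log10 q. Along the chromosome the order was codanin-1, GATA1, codanin-1, GATA1, GATA1, with 15373, 9239, 18714 and 49979 bp between neighbours. The nearest pair of the 2 lists was thus 9.24 kb apart.

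Peak densities of the TAL1 locus were set beside those of its flanks. The 3 GATA1 peaks gave 25 per Mb (exact 95% Poisson interval 5.16 to 73.1), against 2.77 per Mb on chromosome 1. Within 500 kb outside the locus there was no GATA1 peak on either side (interval 0 to 3.69 per Mb). For the closer flanks of 50, 100 and 250 kb, also empty, the upper limits of 36.9, 18.4 and 7.38 per Mb overlapped the interval of the locus. The nearest GATA1 peaks outside were 625 kb below (chr1:47015226-47015429, 4.39-fold) and 913 kb above (chr1:48672980-48673039, 4.61-fold). Of all windows of 120 kb, 385 of 25244 (1.53%) held at least 3 GATA1 peaks, and on chromosome 1 55 of 2067 (2.66%). The 2 codanin-1 peaks gave 16.7 per Mb (2.02 to 60.2), beside 12 per Mb within 500 kb outside the locus (6.2 to 21) and 10.2 per Mb on chromosome 1. The nearest codanin-1 peaks outside were 91.2 kb below (chr1:47548664-47548766, 4.41-fold) and 102 kb above (chr1:47862185-47862649, 3.72-fold). Intervals cover counting error only, and neighbouring peaks are not independent.

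**Figure D2:**
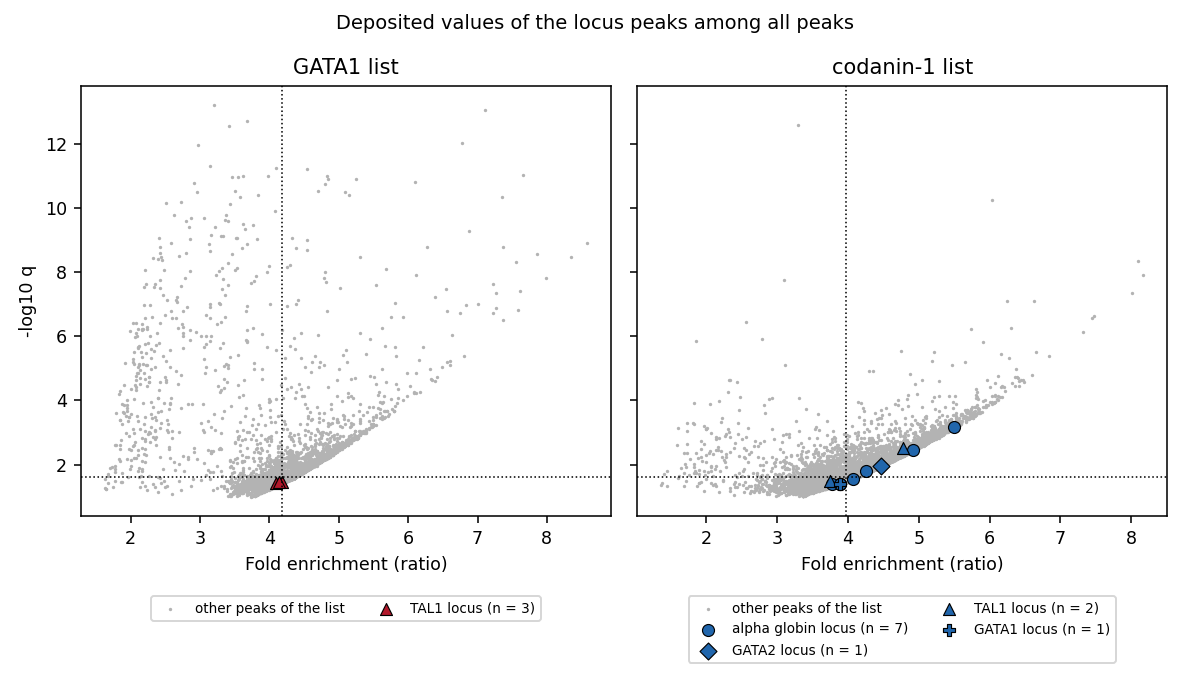
Fold enrichment (x axis, ratio) and −log10 q (y axis) of every peak as deposited, in the GATA1 list (left) and the codanin-1 list (right), with locus peaks as large symbols and list medians as dotted lines. The 3 TAL1 symbols of the GATA1 list sit below both medians, and the highest codanin-1 symbol is an alpha globin peak at 5.50-fold.

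The alpha globin locus, whose genes HBA1 and HBA2 encode the adult alpha chains and HBZ the embryonic zeta chain, held the most codanin-1 peaks and no GATA1 peak. The 7 codanin-1 peaks were spread over 119 kb, from chr16:103209-103309 to chr16:222264-222493. The strongest was at chr16:157315-157437, with a fold enrichment of 5.50 and a −log10 q of 3.17, and stood above 98.9% of its list in fold (rank 164 of 14365). It lay 2.28 kb from its neighbour at chr16:154754-155037, which had a fold enrichment of 4.07 and a −log10 q of 1.56. The peak at chr16:103209-103309 had a fold enrichment of 4.92 and a −log10 q of 2.44, above 94.2% of the list in fold.

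The remaining alpha globin peaks were closer to the middle of the list or below it. That at chr16:188718-188994 had a fold enrichment of 4.25 and a −log10 q of 1.80. Those at chr16:116755-117224 (3.89-fold, −log10 q 1.4), chr16:177132-177497 (3.78-fold, 1.38) and chr16:222264-222493 (3.88-fold, 1.38) lay below both medians. Widths ran from 101 bp to 470 bp, and gaps between neighbours from 2.28 kb to 37.5 kb. So 4 of the 7 exceeded the list's median fold enrichment. Merging peaks within 1 kb left all 11 codanin-1 members separate.

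Codanin-1 peaks were denser in the alpha globin locus than on chromosome 16 as a whole, but the intervals for the locus and its flanks overlapped. There were 46.7 peaks per Mb in the locus (exact 95% Poisson interval 18.8 to 96.2), 18.3 per Mb within 500 kb outside it (9.15 to 32.8) and 7.60 per Mb on chromosome 16. These flanks cover 0.6 Mb, because the chromosome end cuts the lower one. Of all windows of 150 kb, 256 of 20195 (1.27%) held at least 7 codanin-1 peaks. On chromosome 16 it was 10 of 601 (1.66%), and without chromosomes 9 and 22 209 of 18915 (1.10%). GATA1 had no peak in the locus (0 to 24.6 per Mb), 18.3 per Mb within 500 kb outside it (9.15 to 32.8) and 2.84 per Mb on the chromosome. For GATA1 too, the intervals for the locus and its flanks overlapped. A GATA1 peak was present in 116 of 601 windows of 150 kb on chromosome 16 (19.3%), so an empty window was the commoner case there.

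The GATA1 peaks around the alpha globin locus left a gap over it. The nearest below was at chr16:68912-68971, 31.0 kb before the locus, with a fold enrichment of 4.41 and a −log10 q of 1.70. The nearest above was at chr16:407871-407980, 158 kb beyond, with a fold enrichment of 4.16 and a −log10 q of 1.42. The 339 kb between them held no GATA1 peak, while 10 followed within 500 kb above the locus and 22 within 1000 kb. The locus begins at position 100000, so the chromosome end cuts the flank below it. Counts below and above therefore cover unequal lengths and cannot be compared. Gaps of at least that length made up 84.8% of the peak-free sequence of chromosome 16 in this list. Codanin-1 had 1 peak in the shortened flank below (chr16:65055-65208, 4.46-fold, 34.8 kb away). It had 10 above within 500 kb, the first at chr16:388379-388539 (4.27-fold, 138 kb away). The GATA1 peak below the locus and the codanin-1 peak below it did not overlap.

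**Figure D3:**
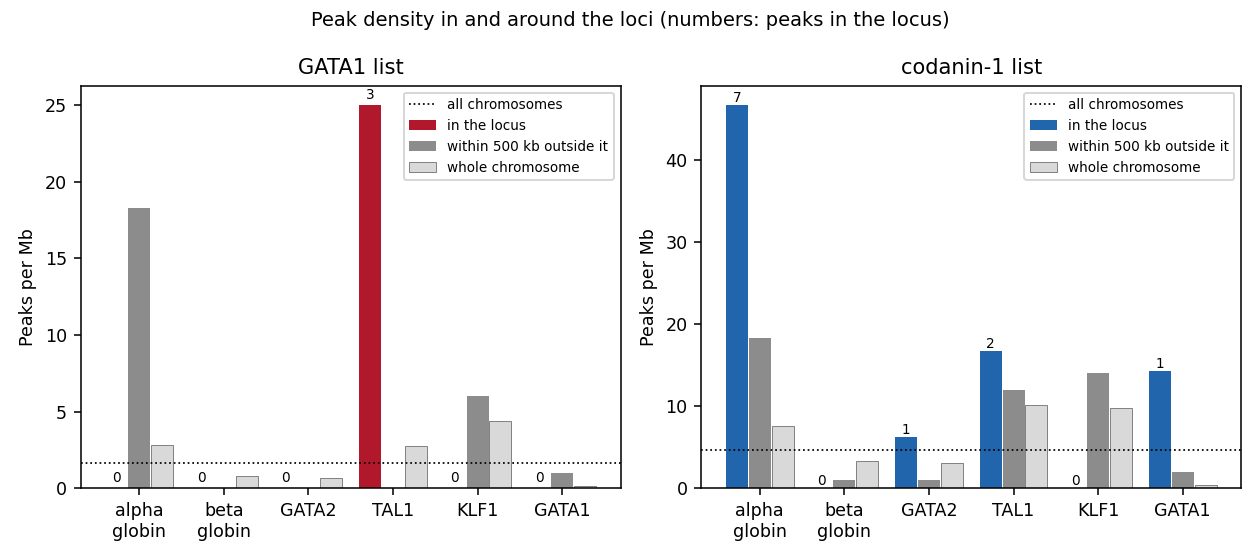
Peaks per Mb (y axis, linear) in each locus (coloured), within 500 kb outside it (dark grey) and on its whole chromosome (light grey), for the GATA1 list (left) and the codanin-1 list (right). The dotted line is the density over all chromosomes (1.67 and 4.65 per Mb), and the numbers are peaks in the locus.

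The beta globin locus, with the adult gene HBB and the fetal genes HBG1 and HBG2, was empty in both lists, with few peaks of either around it. There was no GATA1 peak within 500 kb on either side and 1 within 1000 kb. The nearest GATA1 peaks were at chr11:6256515-6256635, 937 kb above (4.2-fold, −log10 q 1.49), and at chr11:3458724-3458864, 1.76 Mb below (4.38-fold, 1.67). The peak-free stretch between them was 2.80 Mb, and stretches at least that long made up 76.3% of the peak-free sequence of chromosome 11. Codanin-1 had no peak within 250 kb and 1 within 500 kb, at chr11:5602187-5602368, 282 kb above (3.87-fold, 1.55). The nearest below was 813 kb away at chr11:4406701-4406801 (4.71-fold, 2.23). Stretches without a codanin-1 peak at least as long as this one, 1.20 Mb, made up 43.5% of the chromosome's sequence free of such peaks. Both lists were sparser on chromosome 11 than on all chromosomes together, with 0.794 GATA1 and 3.34 codanin-1 peaks per Mb. The intervals within 500 kb outside the locus included these densities (0 to 3.69 per Mb for GATA1 and 0.0253 to 5.57 for codanin-1).

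GATA2, the GATA factor of blood stem and progenitor cells, lay far from any GATA1 peak. The nearest were 10.8 Mb above (chr3:139181073-139181279, 4.16-fold, −log10 q 1.45) and 14.2 Mb below (chr3:114010180-114010277, 4.59-fold, 1.89). The stretch of 25.2 Mb between them was among the 7 longest of 5048 peak-free stretches in the GATA1 list, counted without regard to assembly gaps. On chromosome 3, 2 of 129 stretches were at least as long, and these made up 31.4% of its peak-free sequence. The codanin-1 list was not empty there. It had 1 peak near the upper end of the locus, at chr3:128339963-128340063, 101 bp wide, with a fold enrichment of 4.47 and a −log10 q of 1.97, above 82.8% of its list in fold. The next codanin-1 peaks were 162 kb above the locus (chr3:128511949-128512049, 3.83-fold) and 1.57 Mb below (chr3:126623124-126623224, 4.01-fold). Chromosome 3 held 0.657 GATA1 and 3.10 codanin-1 peaks per Mb.

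KLF1 encodes an erythroid zinc finger factor that activates the adult beta globin gene, and its locus was empty in both lists. Within 50 kb outside it there were 0 GATA1 peaks and 2 codanin-1 peaks. Within 500 kb outside it there were 6 GATA1 peaks and 14 codanin-1 peaks, and the chromosome held 4.38 and 9.78 per Mb. The nearest GATA1 peak was at chr19:13096409-13096468, 76.4 kb above, with a fold enrichment of 4.90 and a −log10 q of 2.36. The nearest below was 355 kb away at chr19:12624278-12624529 (4.27-fold, 1.53). A codanin-1 peak at chr19:13023939-13024068 lay 3.94 kb beyond the upper edge (3.87-fold, 1.38), so its absence from the locus rests on where the edge was set. Below the locus the nearest codanin-1 peak was 93.4 kb away (chr19:12886366-12886598, 3.87-fold). At 40 kb the locus is the shortest of the 6. On chromosome 19, 11.8% of windows of that length held a GATA1 peak and 29.0% a codanin-1 peak, so an empty window was the commoner case.

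The GATA1 gene's own locus had no GATA1 peak and 1 codanin-1 peak. That peak, at chrX:48612765-48613090, was 326 bp wide with a fold enrichment of 3.88 and a −log10 q of 1.38, above 35.9% of its list in fold and 13.3% in −log10 q. Peaks were rare on chromosome X, with 22 GATA1 peaks (0.142 per Mb) and 67 codanin-1 peaks (0.434 per Mb). Windows of 70 kb with a codanin-1 peak made up 2.86% of those on chromosome X. The nearest GATA1 peak was 343 kb above, at chrX:49012722-49012856 (4.05-fold, 1.31), and the nearest below was 19.2 Mb away, at chrX:29352972-29353151 (4.34-fold, 1.6). The 19.7 Mb between them held no GATA1 peak, and stretches at least that long made up 47.0% of the peak-free sequence of chromosome X. A GATA1 peak was present in 19 of 2206 windows of 70 kb there (0.861%), so an empty window was by far the commoner case. The nearest codanin-1 peaks outside the locus were 273 kb above (chrX:48943325-48943425, 4.18-fold) and 645 kb below (chrX:47954614-47954735, 4.12-fold).

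No site in these loci was shared by the lists. None of the 3 GATA1 and 11 codanin-1 members overlapped a peak of the other list by 1 bp, and none came within 1 kb. Over the whole lists the other list was met by 20.2% of GATA1 peaks and, from the codanin-1 side, by 6.60%. With only 3 and 11 members, counts of 0 do not set the members apart from these shares. No share of the whole lists was taken at 1 kb, so the count at that distance has no reference. The gap from a codanin-1 member to the nearest GATA1 peak had a median of 88.3 kb (9.24 kb to 10.8 Mb), beside 94.5 kb over the whole codanin-1 list. For the 3 GATA1 members the gap to codanin-1 was 9.24, 18.7 and 68.9 kb, beside a median of 3.9 kb over the GATA1 list. All alpha globin members were measured to the same GATA1 peak (chr16:68912-68971). All 3 GATA1 members were measured to the same codanin-1 peak (chr1:47671160-47671283), so the gaps of the members are not independent of each other.

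A −log10 q of 2 or more was reached by 1395 GATA1 peaks (27% of the list), a value of 5 or more by 272 (5.27%) and a fold enrichment of 5 or more by 271 (5.25%), and in each class 0 lay in a locus. With 3 members and shares this small, a count of 0 does not set the members apart from the list. The nearest with a value of 5 or more were 2.6 Mb from KLF1, 3 Mb from TAL1, 4.58 Mb from beta globin, 13.1 Mb from GATA1, 14.3 Mb from alpha globin and 52.5 Mb from GATA2. Among the 11 codanin-1 members, 3 reached a −log10 q of 2, as did 22.9% of the whole list. They were the alpha globin peaks of 5.50-fold and 4.92-fold and the TAL1 peak of 4.77-fold. Over all 11 codanin-1 members the median fold enrichment was 4.07 against 3.97 in the list, and 6 lay above the list's median. The median −log10 q was 1.56 against 1.6, and the median width was 277 bp against 220 bp.

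**Figure D4:**
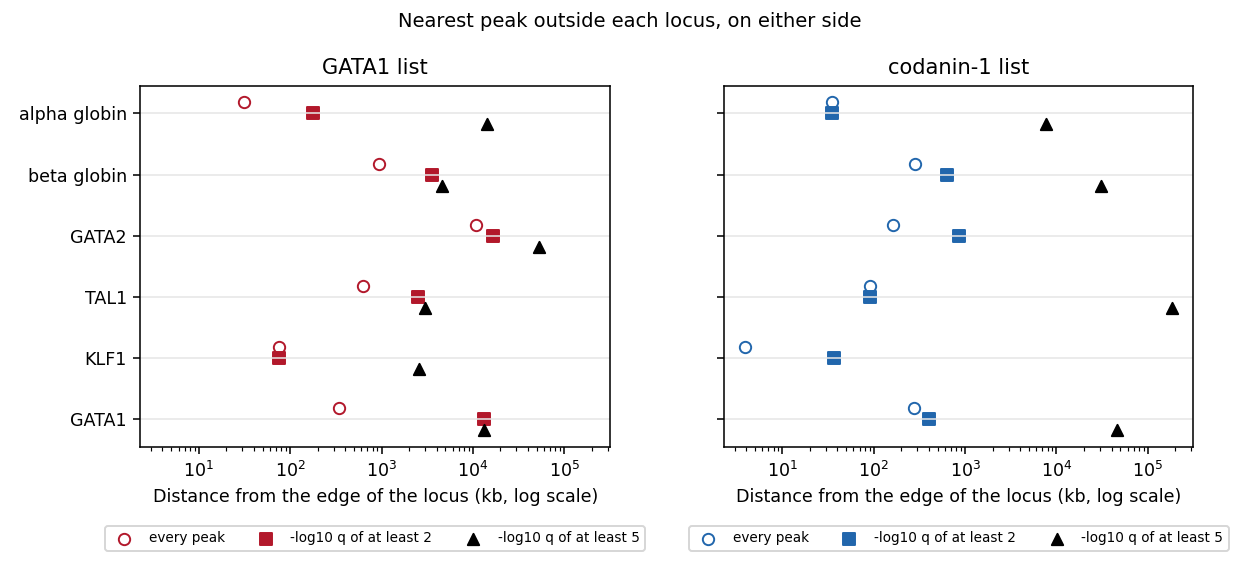
Distance in kb (x axis, log scale) from the edge of each locus to the nearest peak outside it on either side, for every peak (open circles) and for those that reach a −log10 q of 2 (squares) or 5 (triangles). In the GATA1 list the nearest peak of any strength ranges from 31.0 kb at alpha globin to 10.8 Mb at GATA2; the codanin-1 list had no peak of the highest class on the chromosomes of GATA2 and KLF1.

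Summed over the 640 kb, the GATA1 density was 4.69 peaks per Mb, beside 1.67 for the whole genome, a ratio of 2.8 (exact 95% Poisson interval 0.578 to 8.2). The interval includes equal densities. All 3 GATA1 members lay at TAL1, so without that locus the ratio had to be 0 (0 to 4.25). That interval includes equal densities and also 2.8, so it cannot show whether the other loci differ from the genome. Codanin-1 had 17.2 peaks per Mb against 4.65, a ratio of 3.7 (1.85 to 6.62), which was 1.76 (0.478 to 4.5) without the alpha globin locus. The alpha globin cluster held 7 of the 11 codanin-1 members, so leaving it out had to lower the ratio. The interval without it includes equal densities and also 3.7, so it cannot show whether the other loci differ from the genome. With 500 kb added on each side of every locus the ratios were 2.01 (1.25 to 3.08) for GATA1 and 1.79 (1.34 to 2.35) for codanin-1, and the added GATA1 peaks lay beside the alpha globin (11), KLF1 (6) and GATA1 (1) loci.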

How the data were processed

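Peak lists of the codanin-1 and GATA1 libraries were used, 1 library each. BWA, MACS2 and hg19 appear, with no versions or roles, per the submitters' processing notes. The background library, threshold and any filters were not given in the sources used here. Per the file layout (9 columns, no header), the authors deposited for each peak a fold enrichment (ratio), a −log10 p, a −log10 q (p-value and q-value on a −log10 scale) and a score derived from the q-value, which was not used. These are the authors' values and were ranked only within a list. Peak names number both lists without a gap. Depth is unknown.

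Starts are written from 1. Peaks were assigned to loci by midpoint, and distances run between nearest edges. Flanks and widened loci stop at the start of the chromosome, which shortens only the lower side of the alpha globin locus. Background windows were tiled up to the last peak of either list on each chromosome, without Y and M. Densities use 3090.1 Mb, the sum of last peak positions, and carry exact 95% Poisson intervals. Every peak in a locus and the nearest outside on each side are named. The loci and alternatives were chosen with earlier results of these data known. Counting was tested on simulated data. Python 3.11.15, numpy 2.4.6, pandas 2.3.3, scipy 1.17.1 and matplotlib 3.10.9 were used.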

Additional observations from a re-analysis of the deposited data

How the results depend on the processing

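Of 52 alternative values, 24 moved, that is, a count or distance by more than 1.5 times or a density ratio out of the reported interval. The GATA1 count of 3 peaks in 1 locus became 0 peaks in 0 loci when a −log10 q of 2 or of 5, or a fold of 5, was required. The density ratio became 0 at a −log10 q of 2 (interval 0 to 12.8) or without TAL1 (0 to 4.25). No GATA1 member was left in either case, and both intervals include equal densities. Loci with a GATA1 peak numbered 2 with 50 kb added on each side, and 4 with 500 kb added, which then held 21 GATA1 peaks. The 11 codanin-1 peaks in 4 loci became 3 in 2 when a −log10 q of 2 was required, 0 in 0 at 5, and 1 in 1 at a fold of 5. Of the whole lists, these limits were met by 22.9%, 0.188% and 4.78% of codanin-1 peaks and by 27%, 5.27% and 5.25% of GATA1 peaks. The counts in the loci are too small to set the members apart from these shares. Loci with a codanin-1 peak numbered 5 with 50 kb added and 6 with 500 kb added, so presence in either list depends on the edges of the loci. With 500 kb added there were 52 codanin-1 peaks, at a density ratio of 1.79, and without alpha globin the ratio was 1.76. The GATA1 ratio ranged from 2.01 to 3.74 under the alternatives that kept it above 0, and at 2.01 (500 kb added, interval 1.25 to 3.08) the interval no longer included 1. The median distance from a locus to the nearest outside peak rose from 484 kb to 3020 kb and 8810 kb for GATA1, and from 127 kb to 248 kb and 38400 kb for codanin-1, when a −log10 q of 2 and of 5 was required. The last value covers 4 loci, since chromosomes 3 and 19 had no such peak. Fewer peaks in stricter lists lengthen these distances by construction. Merging, overlap in place of midpoint, and leaving chromosomes 9, 22, Y and M out of the reference density changed no call. No paired analysis was possible because there is 1 library per antibody, so leaving out a library was not possible either. Depth is unknown, so sites below the calling threshold cannot be counted.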
